A study of Mus musculus with 2 samples.

Results

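Microglia are the resident macrophages of the brain. Described here are 10 genes that mark them or encode the C1q chains they secrete, by their counts of ribosome footprints. The genes are Csf1r, C1qa, C1qb, C1qc, Cx3cr1, P2ry12, Tmem119, Aif1, Trem2 and Tyrobp. They were listed by symbol, and a transcript belonged to a gene when its name without the trailing number was that symbol. The list matched 10 of 45578 genes and 27 of 109463 transcripts. Ribosome profiling counts footprints, the short stretches of mRNA that a ribosome shields from nuclease, and they were summed over all transcripts of a gene. The samples were brains of 2 mice at postnatal day 5, replicates 1 and 2 of 1 group that the labels call control. Both animals had the genotype Smn+/-; SMN2tg/0, so each carried 1 disrupted Smn allele together with the human transgene SMN2, in the FVB strain. No other genotype or treatment was compared, and the comparisons are among genes and between the replicates.

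Microglia colonise the brain before birth and are kept alive by signals through the receptor Csf1r. In the young brain they sense neurons through Cx3cr1 and P2ry12, clear debris through Trem2 and its adaptor Tyrobp, and take part in the removal of synapses, some of which carry C1q. C1q is the recognition molecule of the classical complement pathway and is assembled from A, B and C chains in equal number.

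The 3 chains are encoded next to each other on chromosome 4, in the order C1qb, C1qc, C1qa in the RefSeq gene table of assembly GRCm38.p6. RefSeq promoter windows of the same assembly were matched for 6 of the 10 genes. The bases upstream of the annotated start are shown for C1qb and C1qc, as neighbouring genes of 1 complex, and for P2ry12. The value of P2ry12 was higher in replicate 2 and those of C1qb and C1qc were lower, where C1qc did not pass the test given below. A relation of these bases to the difference between the replicates was not tested. The windows are C1qb at chr4:136886201-136886450, C1qc at chr4:136892915-136893164 and P2ry12 at chr3:59262986-59263235, all on the minus strand of GRCm38.p6 and written 5′ to 3′ with 250 bases each. Capitals mark GAGGAA or its reverse complement TTCCTC, the core of the PU box bound by the myeloid factor PU.1.
C1qb: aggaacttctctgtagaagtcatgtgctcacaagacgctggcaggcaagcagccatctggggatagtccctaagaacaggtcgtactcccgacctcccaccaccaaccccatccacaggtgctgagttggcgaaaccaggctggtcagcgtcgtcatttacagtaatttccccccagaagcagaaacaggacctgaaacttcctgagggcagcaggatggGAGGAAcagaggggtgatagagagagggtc
C1qc: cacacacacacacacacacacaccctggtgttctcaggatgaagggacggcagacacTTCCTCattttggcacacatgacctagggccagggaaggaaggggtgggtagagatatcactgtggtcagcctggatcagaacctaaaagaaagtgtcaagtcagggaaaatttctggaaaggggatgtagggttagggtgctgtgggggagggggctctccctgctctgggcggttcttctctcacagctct
P2ry12: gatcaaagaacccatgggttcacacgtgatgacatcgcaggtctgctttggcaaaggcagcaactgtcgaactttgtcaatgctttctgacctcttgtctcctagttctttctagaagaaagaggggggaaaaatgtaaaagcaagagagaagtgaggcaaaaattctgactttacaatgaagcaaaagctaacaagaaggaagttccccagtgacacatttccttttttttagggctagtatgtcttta

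The PU box core was searched on both strands. It was found 30 bases before the start of C1qb and 193 bases before that of C1qc. It was also present 40 bases before Trem2 and 7 bases before Aif1, and these letters were not in the windows of P2ry12 and Cx3cr1. Of all 32851 promoter windows of this length, 23.3% held it, against 4 of the 6 matched windows here, and a match describes the letters and not a binding site. Spi1, the gene of PU.1, had 10 footprints in replicate 1 and 37 in replicate 2.

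The deposited libraries held 1866831 footprints in replicate 1 and 5261878 in replicate 2. With a limit of 3 counts, a gene at 0 could have had up to 1.61 CPM (the count scaled to the library total) in replicate 1, and up to 0.570 in replicate 2. Intervals in the text are exact (Clopper-Pearson) at 95% and cover counting error only, since PCR copies are not independent molecules. Marker genes of neurons, astrocytes, the oligodendrocyte lineage and endothelium had summed levels of 345 to 3956 CPM in the libraries, so the defining genes of brain tissue were present. Markers of red cells summed to 2484 and 1702 CPM in replicates 1 and 2.

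The 10 genes together had 572 footprints in replicate 1 and 1571 in replicate 2. Their summed level was 306 CPM (282 to 333) and 299 CPM (284 to 314), with a mean of 302 ± 5.54 (SD, n = 2). These intervals overlapped almost wholly, but the closeness rests on scaling by library totals. On TMM effective sizes, which are used for the gene tests below, the summed level was 320 (294 to 347) in replicate 1 and 286 (272 to 300) in replicate 2, and the SD rose to 24.3 around 303. In whole tissue, fewer microglia and less mRNA per microglia cannot be told apart, and the level of every gene below is subject to this. RNA levels of the same brains were not analysed here. A level is a share of the library's footprints, and not a number of ribosomes or a rate per mRNA.

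To compare genes, each level was divided by the coding length of the gene's most counted transcript and is given as RPKM, which is CPM per kilobase of coding sequence. On this scale the genes spanned 4.56-fold, from Cx3cr1 at 48.0 ± 4.00 to Tmem119 at 10.5 ± 3.09 (SD, n = 2). Among 13317 protein-coding genes whose count averaged 10 or more, the median was 24.4 RPKM, and 8 of the 10 lay above it by their mean. Of these 8, P2ry12 at 21.5 and Aif1 at 21.7 RPKM were below that value in replicate 1. From high to low the order was Cx3cr1, C1qc, C1qa, C1qb, Tyrobp, P2ry12, Aif1, Csf1r, Trem2 and Tmem119. In 7 of the 9 neighbouring pairs the ranges of the replicates overlapped, so those neighbours did not differ beyond their spread. The ranges were apart between Csf1r and Trem2 and between Trem2 and Tmem119. The order depended on how transcripts were counted. With the highest transcript of each gene alone, C1qa at 73.9 RPKM, C1qb at 66.9, Tyrobp at 66.5 and C1qc at 65.8 stood above Cx3cr1 at 49.4. In that setting Aif1 at 13.9, P2ry12 at 15.1 and Trem2 at 15.3 stood below Tmem119 at 15.5. C1qa, C1qb and Tyrobp have 1 transcript each and keep all their footprints there, while genes with several transcripts lose part of theirs. The library totals of that setting are smaller too, 999026 and 2576187, so its RPKM values are not on the scale of the main ones or of the median.

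**Figure D1:**
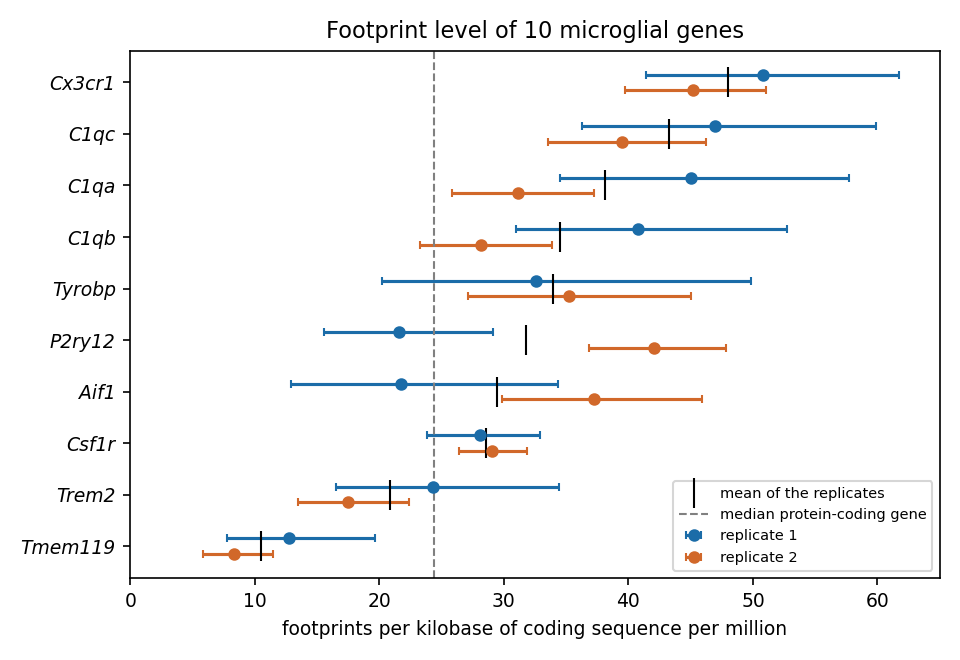
Footprint level (RPKM of coding sequence, x axis) of the 10 genes in replicate 1 and replicate 2, with exact 95% counting intervals as bars, the mean as a black tick and the median protein-coding gene, 24.4 RPKM, as a dashed line. Cx3cr1 is highest in both replicates and Tmem119 lowest, and the intervals of P2ry12 lie apart while those of the other 9 genes overlap.

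The surface receptors came first by role. Cx3cr1 (ENSMUSG00000052336), the receptor for the neuronal chemokine Cx3cl1, gave 101 and 253 footprints in replicates 1 and 2 over 355 codons. This made 50.8 RPKM in replicate 1 and 45.1 in replicate 2. It stood first of the 10 in both libraries, and its mean lay at percentile 68.1 of the protein-coding genes. Csf1r (ENSMUSG00000024621), the receptor tyrosine kinase for Csf1 and Il34, had the most footprints of the 10 genes, 154 and 448. Spread over its 978 codons these gave 28.1 and 29.0 RPKM, a mean of 28.6 ± 0.638 (SD, n = 2). Csf1r thus led by count and stood eighth by mean density, at place 6 in replicate 1 and 7 in replicate 2.

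P2ry12 (ENSMUSG00000036353), the ADP receptor that steers microglial processes towards injury, gave 42 footprints in replicate 1 and 231 in replicate 2. These made 21.5 RPKM (15.5 to 29.1) in replicate 1 and 42.1 (36.8 to 47.8) in replicate 2, and the intervals did not overlap. It was ninth of the 10 in replicate 1 and second in replicate 2, the widest move in the list, at a mean of 31.8 ± 14.5 (SD, n = 2). Tmem119 (ENSMUSG00000054675), a membrane protein widely used as a microglial marker, had 20 and 37 footprints, or 12.7 and 8.34 RPKM. It was lowest in both libraries and lay at percentile 27.9 of the protein-coding genes.

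Trem2 (ENSMUSG00000023992), a receptor for lipids and lipoproteins, had 31 and 63 footprints, or 24.3 RPKM in replicate 1 and 17.5 in replicate 2. Tyrobp (ENSMUSG00000030579), also named DAP12, is the short adaptor that carries the Trem2 signal into the cell and serves other receptors too. It had 21 and 64 footprints on a coding sequence of 115 codons. Its level was 32.6 and 35.3 RPKM, with a mean of 33.9 ± 1.87 against 20.9 ± 4.79 for Trem2 (SD, n = 2). Aif1 (ENSMUSG00000024397) encodes Iba1, a calcium-binding protein of the actin cytoskeleton, and had 18 and 87 footprints. Its level was 21.7 RPKM (12.9 to 34.3) in replicate 1 and 37.2 (29.8 to 45.9) in replicate 2, higher in replicate 2 with overlapping intervals.

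The C1q chains had levels close to each other. C1qa (ENSMUSG00000036887) had 62 footprints in replicate 1 and 121 in replicate 2, or 45.0 and 31.2 RPKM. C1qb (ENSMUSG00000036905) had 58 and 113, or 40.8 and 28.2 RPKM. C1qc (ENSMUSG00000036896) had 65 and 154, or 47.0 and 39.5 RPKM. The values of all 3 chains were lower in replicate 2, with overlapping counting intervals on this scale, and in each library the order was C1qc, C1qa, C1qb. Their coding sequences have 246, 254 and 247 codons for A, B and C, so their counts can be compared almost directly.

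Whether the chains matched in footprints per codon was tested with an exact binomial test. The counts of each pair were set against the share given by their coding lengths. The family held the 3 chain pairs and the pair of Trem2 and Tyrobp in each library, 8 tests with Benjamini-Hochberg adjustment. C1qa over C1qb was 1.10 per codon in replicate 1 (0.759 to 1.61) and 1.11 in replicate 2 (0.848 to 1.44), where exact tests gave adjusted p of 0.741 and 0.630. C1qa over C1qc was 0.958 (0.665 to 1.38) and 0.789 (0.617 to 1.01), with adjusted p of 0.859 and 0.143. C1qb over C1qc was 0.868 (0.598 to 1.26) and 0.714 (0.555 to 0.916), with adjusted p of 0.630 and 0.0279. No chain pair differed past the threshold in both libraries, and the intervals allow differences of the size given. Footprints on a C1qc transcript without coding sequence are part of these values: without it, C1qa over C1qc had a mean log2 ratio of 0.16 in place of -0.20, and C1qb over C1qc 0.01 in place of -0.35.

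Trem2 over Tyrobp was 0.745 per codon in replicate 1 (0.414 to 1.36) and 0.497 in replicate 2 (0.345 to 0.714). Its exact binomial tests gave adjusted p of 0.611 and 0.000802, so the receptor was below its adaptor past the threshold in the deeper library alone. A two-sided Fisher's exact test of each pair by library gave adjusted p of 0.520 for Trem2 with Tyrobp, 1.00 for C1qa with C1qb and 0.520 for both pairs with C1qc. No ratio was thus shown to differ between the libraries. With the highest transcript of each gene alone, Trem2 over Tyrobp was 0.229 and passed in both libraries. That setting keeps all 85 footprints of Tyrobp, which has 1 transcript, but 35 of the 94 of Trem2, so the ratio falls with the counting. With coding transcripts alone the ratio was 0.421 and did not pass in both libraries.

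**Figure D2:**
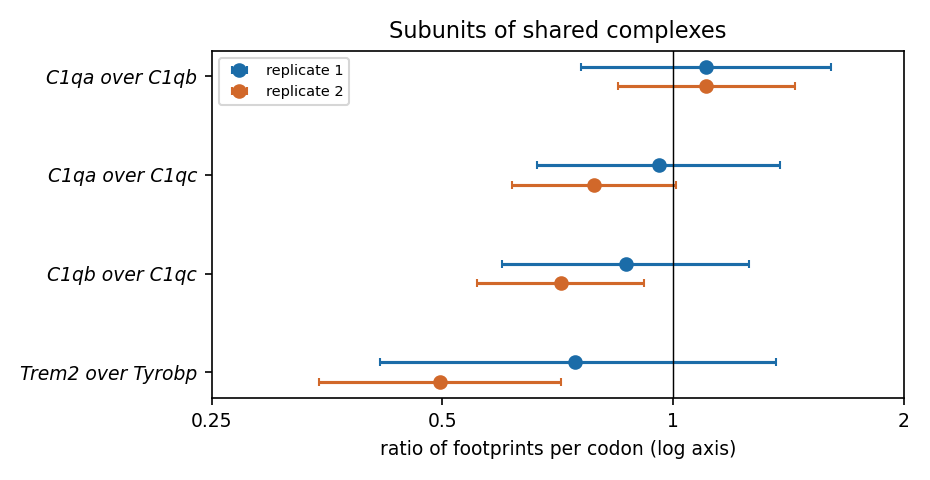
Ratio of footprints per codon (x axis, log scale) for the C1q chain pairs and for Trem2 over Tyrobp in each replicate, with exact 95% counting intervals as bars and a line at 1. The intervals of C1qa over C1qb include 1 in both replicates, while those of C1qb over C1qc and of Trem2 over Tyrobp lie below 1 in replicate 2 alone.

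The libraries were then compared gene by gene, using TMM effective library sizes in a binomial test (exact, two-sided). P-values were adjusted by Benjamini-Hochberg over the 16427 genes whose count averaged 10 or more. All 10 genes passed this filter. The test covers counting noise between a pair of libraries and not the spread among animals. It called 3 of the 10 genes, beside 17.4% of all genes tested. P2ry12 was higher in replicate 2 (5.95% of all genes were called in this direction), and C1qa and C1qb were lower (11.5%). The log2 ratio of replicate 2 over replicate 1 was 0.82 for P2ry12, with a counting interval of 0.36 to 1.35 (exact binomial test, adjusted p 0.00336). It was -0.64 for C1qa (-1.11 to -0.19) and -0.65 for C1qb (-1.13 to -0.17), with adjusted p of 0.0296 and 0.0359.

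The other 7 genes did not pass. Their log2 ratios were 0.63 for Aif1, -0.01 for Tyrobp, -0.08 for Csf1r, -0.29 for Cx3cr1, -0.37 for C1qc, -0.58 for Trem2 and -0.69 for Tmem119. Of the 10 genes 8 had a ratio below 0, or 6 when libraries were scaled by their totals, where Csf1r and Tyrobp turned to 0.05 and 0.11. The median log2 ratio was -0.33, beside 0.01 for all genes tested. The calls depended on the setting: with library totals, which called 19.0% of all genes, P2ry12 alone was called, and C1qa and C1qb had adjusted p of 0.0961 and 0.0987 (exact binomial). With the highest transcript of each gene 0 of the 10 were called, beside 9.41% of all genes, while the log2 ratios were 1.10 for P2ry12 and -0.58 for both C1qa and C1qb. With edgeR's exact test and a common dispersion 0 of the 10 were called, beside 0.0670% of all genes, so this count says nothing about these genes. That test gave P2ry12 alone an unadjusted p under 0.05, at 0.0477.

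**Figure D3:**
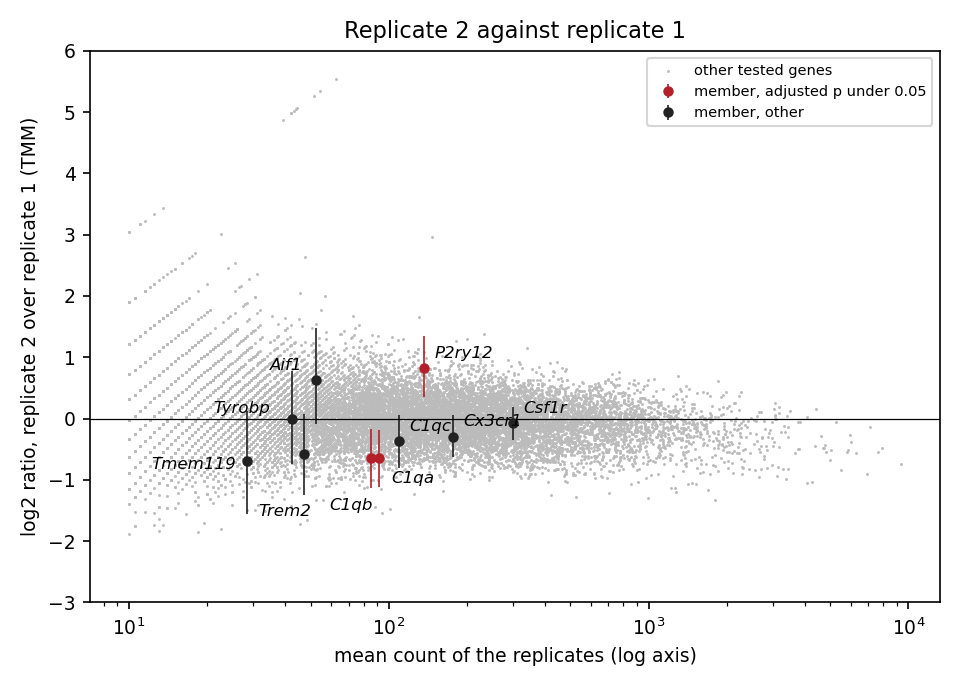
Log2 ratio of replicate 2 over replicate 1 (TMM scaling, y axis) against the mean count (x axis, log scale) for 16427 tested genes in grey, with the 10 microglial genes labelled and their exact 95% counting intervals as bars. P2ry12 lies above 0 and C1qa and C1qb below (red, adjusted p under 0.05), while the bars of the other 7 genes (black) cross 0.

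The footprints of 7 genes fell on several annotated transcripts, 24 in all, and C1qa, C1qb and Tyrobp had 1 transcript each. A fragment from shared exons can be counted on any of them, so the split follows the counting as well as the isoforms. The counting rule is not given. If a fragment was counted on several transcripts, the sums of these genes hold it more than once. Their intervals and p-values would then be too narrow. Csf1r-001 and Csf1r-201 share a coding length of 2934 nucleotides and differ in untranslated sequence, with 936 and 1767 nucleotides. They took 311 and 291 footprints over both libraries, so the transcript with the longer untranslated part had no more. Cx3cr1-201 and Cx3cr1-202 share 1065 coding nucleotides, with untranslated lengths of 2664 and 2091, and took 184 and 170 footprints. The 4 P2ry12 transcripts with the full coding length of 1044 nucleotides took 55 to 67 footprints each. The shorter P2ry12-005 held 21.4% of the gene's footprints in replicate 1 (10.3 to 36.8) and 8.66% in replicate 2 (5.37 to 13.1).

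Transcripts annotated without a coding sequence held footprints of 3 genes. C1qc-002, a processed transcript, took 20.0% of C1qc footprints in replicate 1 (11.1 to 31.8) and 24.0% in replicate 2 (17.5 to 31.6). For Trem2 such transcripts took 22.6% (9.59 to 41.1) and 38.1% (26.1 to 51.2), of which Trem2-003, with a retained intron, held 7 and 16 footprints. For Aif1 they took 16.7% (3.58 to 41.4) and 28.7% (19.5 to 39.4). Over the whole table, genes without a coding transcript included, the share was 23.7% and 25.2%. It lay inside the intervals of these 3 genes in both libraries, apart from Trem2 in replicate 2. Trem2 also had a pair of coding transcripts, Trem2-001 with 35 footprints and Trem2-002, whose coding sequence is 750 in place of 684 nucleotides, with 28. The share of every one of the 24 transcripts had overlapping intervals in the replicates.

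**Figure D4:**
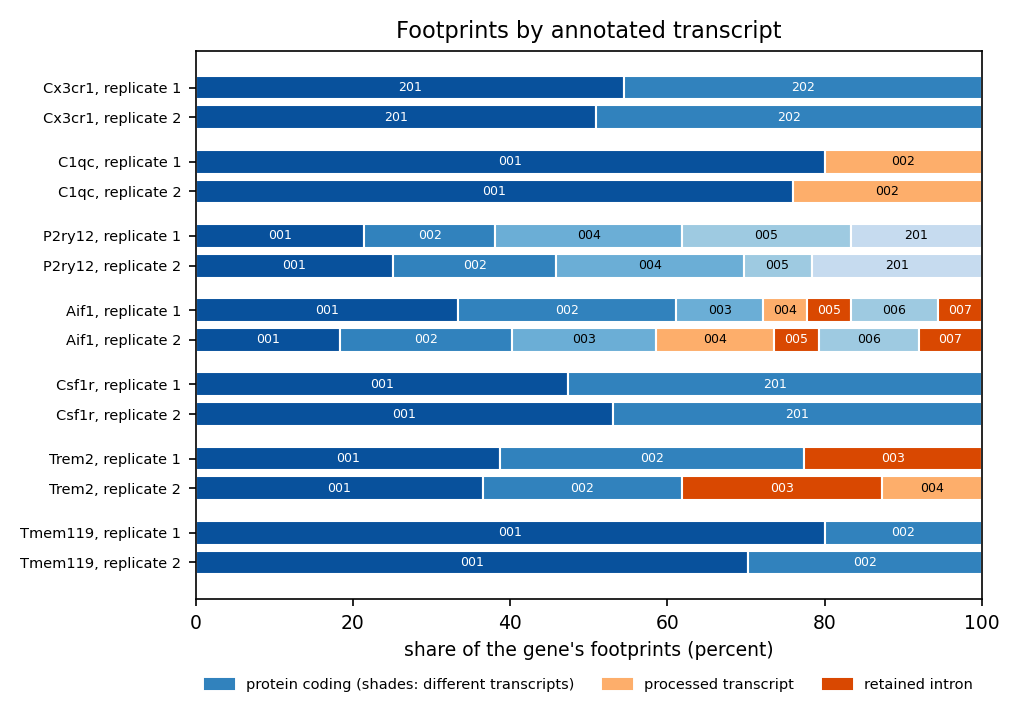
Share of each gene's footprints (percent, x axis) on its annotated transcripts in each replicate, for the 7 genes with several transcripts, with blue for coding transcripts, light orange for processed transcripts and dark orange for retained introns, and the transcript number inside each block. Csf1r and Cx3cr1 split evenly over coding transcripts, while C1qc, Trem2 and Aif1 have blocks without coding sequence.

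The choice of length mattered most for Cx3cr1, whose untranslated sequence exceeds its coding sequence. Per kilobase of full transcript it had 13.7 CPM and stood eighth, while C1qa stood first at 27.0. The place of footprints within a transcript was not analysed here.

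The ligands of these receptors were counted in the same brains. Cx3cl1, the tethered chemokine that Cx3cr1 binds, had 503 and 1189 footprints and a level of 209 ± 25.9 RPKM (SD, n = 2), above its receptor in both libraries. The Csf1r ligands were below their receptor: Il34, made by neurons, had 16.2 ± 0.0758 RPKM and Csf1 had 10.3 ± 0.846. Apoe, a lipoprotein that Trem2 binds, had 2349 RPKM in replicate 1 and 1729 in replicate 2, and Clu, another such ligand, 344 and 321. Cd200, a neuronal signal that restrains microglia, had 419 and 477 RPKM, while its receptor Cd200r1 had 0 and 2 footprints. Of 13 tested genes among the 16 ligands and signalling partners, the exact binomial test called 4, beside 17.4% of all genes. Apoe, Cx3cl1 and Clu were lower and Syk higher in replicate 2. Syk, the kinase that Tyrobp recruits, had 1 and 31 footprints, and its log2 ratio of 2.53 rests on that count of 1, with a counting interval of 0.75 to 8.68. The median of the 13 was 0.04.

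Other genes of the complement cascade were set beside C1q. Of the proteases that C1q activates, C1ra had 0 footprints in replicate 1 and 2 in replicate 2, and C1s1 had 2 and 3. C4b had 2 footprints in replicate 1 and 21 in replicate 2, C2 had 4 and 26, and C3, the central component, had 1 and 8. Their levels were 0.0895 RPKM for C1ra, 0.394 for C1s1, 0.485 for C4b, 1.55 for C2 and 0.206 for C3 on average, against 34.5 to 43.2 for the C1q chains. In both libraries each of these 5 genes lay below every C1q chain. Among the regulators of complement in this list, Susd4, Cr1l and Cd59a had the highest levels. Susd4, a membrane inhibitor, had 40.9 ± 1.80 RPKM (SD, n = 2), and Cr1l, the rodent regulator Crry, 33.8 ± 7.69. Cd59a, which blocks the membrane attack complex, had 31.3 ± 15.7. Other regulators were lower, with Serping1 at 10.7 RPKM and Cd55 at 8.95, and Cd46 had 0 footprints in both libraries. Of the 23 genes listed 22 were found and 15 tested. Susd4, Cr1l, Cd59a, C2 and C4b were among those tested and did not pass, with adjusted p of 0.0871 to 0.951 in the exact binomial test. Whether the other tested genes of this list passed is not reported here. The median log2 ratio of the 15 was 0.28.

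**Figure D5:**
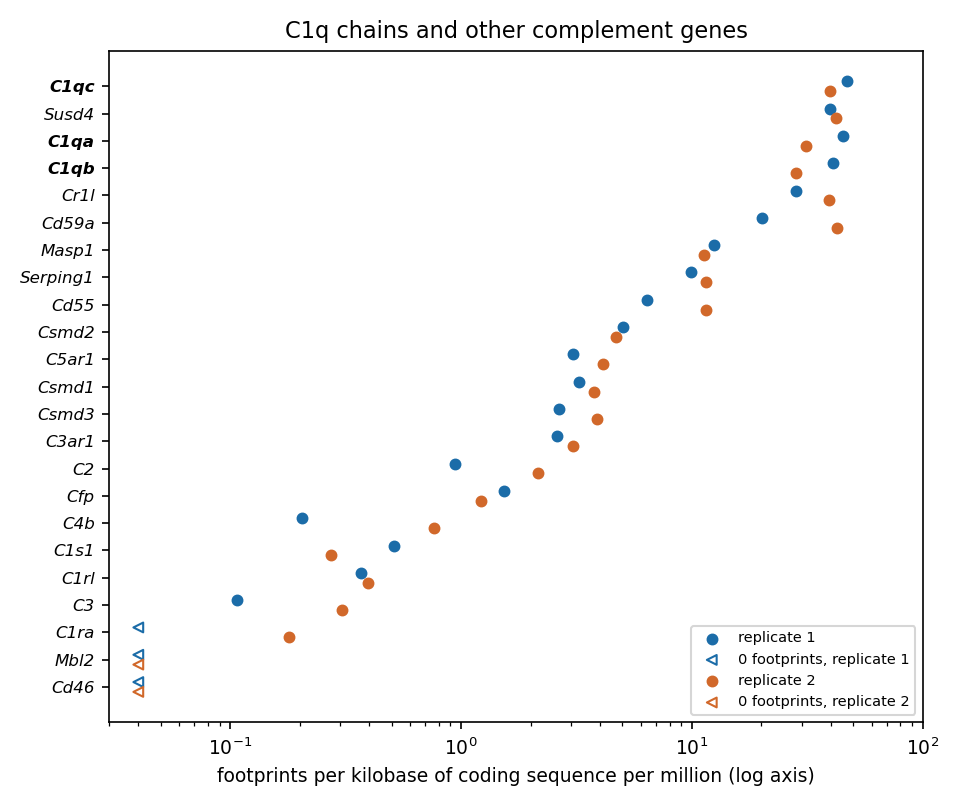
Level of the C1q chains (bold) and of most other complement genes of the list in each replicate (RPKM of coding sequence, x axis, log scale), with open triangles at the left edge for 0 footprints. The C1q chains lie between 28.2 and 47.0 RPKM, near the regulators Susd4, Cr1l and Cd59a, while C1ra, C1s1, C2, C3 and C4b lie at or below 2.16. Among those left out is C4a, which has no coding transcript in the table.

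The C1q domain also occurs in other secreted and matrix proteins. Among 21 genes with this domain, C1qtnf4 had 216 ± 83.5 RPKM (SD, n = 2), Cbln1, a synaptic organiser of the cerebellum, 137 ± 1.77, Cbln2 112 ± 3.36 and Cbln4 71.3 ± 18.4. The level of these 4 was above that of each C1q chain in both libraries. Of 16 tested genes 3 were called, beside 17.4% of all genes. They were C1qtnf4, C1ql1 and Cbln4, all lower in replicate 2. The median log2 ratio of the 16 was -0.14, or -0.02 with library totals.

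A list of 25 other microglial genes gave a summed level of 352 CPM in the first replicate and 439 CPM in the second. Laptm5, a lysosomal membrane protein, had 56.5 ± 9.62 RPKM (SD, n = 2), and Fcer1g, an adaptor of Fc receptors, 33.1 ± 6.13. Rgs10, a regulator of G protein signalling, had 65.4 ± 23.2 and was the 1 gene called of 22 tested, beside 17.4% of all genes. It was higher in replicate 2 at a log2 ratio of 0.60 (adjusted p 0.0361, exact binomial test). Of the 22 genes 17 had a ratio above 0, with a median of 0.24, against 2 of the 10 genes above and their median of -0.33. With library totals 4 of the 22 were called, Rgs10, Fcgr3, Gpr34 and Itgam, beside 19.0% of all genes. Among 8 transcription factors of myeloid cells 0 of 7 tested were called by the exact binomial test, beside 17.4% of all genes. With library totals 1 was called, beside 19.0%. An unadjusted p under 0.05 was found for 1 of the 7 in the binomial test, and the median log2 ratio was 0.24. By edgeR 0 were called, with 0 at an unadjusted p under 0.05. That test called 0.0670% of all genes, so its count says nothing about these genes. Spi1 had 7.56 ± 1.45 RPKM, Sall1 4.49 ± 0.821 and Irf8 3.42 ± 1.27, and Mef2c, which neurons also express, 594 ± 34.9.

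Genes that microglia raise when active in young white matter were present unevenly. Fabp5, Cd9, Lpl and Igf1 had mean levels of 583, 205, 86.4 and 80.7 RPKM, and other brain cells express them too. Spp1 had 38.4 ± 2.14 RPKM (SD, n = 2). Gpnmb, Clec7a and Itgax, which are more restricted to that state, had 2 and 5, 0 and 2, and 1 and 7 footprints, and Cst7 had 0 in both libraries. Of 6 tested genes 2 were called, beside 17.4% of all genes, Lpl higher and Fabp5 lower in replicate 2.

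Macrophages at the borders of the brain share Csf1r, Cx3cr1, Aif1, Tyrobp and C1q with microglia. Their 9 markers had a summed level of 86.2 and 111 CPM in the replicates, and 0 markers were without footprints. Pf4, a chemokine, had 60.8 ± 8.24 RPKM (SD, n = 2), above the mean of each of the 10 genes. Every other marker of this list had a mean of 7.31 RPKM or less, with Mrc1, a mannose receptor, at 5.32 ± 1.46. Of the 6 tested 0 were called by the exact binomial test, beside 17.4% of all genes, and the median log2 ratio was 0.24. By edgeR's test 0 were called, beside 0.0670% of all genes, so that count says nothing about these genes. In both tests 0 had an unadjusted p under 0.05. Markers of monocytes and neutrophils summed to 13.4 and 16.9 CPM over 12 genes, with Elane, Camp and Lcn2 at 0 in both libraries. Others of the list had footprints, with 5 and 22 for Mpo and 4 and 14 for Ccr2. Ly6c2 had 7 and 42, or 14.8 ± 7.56 RPKM, above the mean of Tmem119 at 10.5. The 8 lymphocyte markers had 0 footprints in replicate 1 and summed to 3.04 CPM in replicate 2. The part of border macrophages in the levels of the 10 genes was not tested.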

How the data were processed

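The deposited table, as made by the authors, holds counts of ribosome-protected fragments per transcript, with 1 column per replicate, no normalization and the annotated transcript and coding lengths. Per the labels' protocols, polysomes were isolated from frozen brain on sucrose gradients and digested with RNase I, and fragments of 25 to 35 nucleotides were sequenced. The submitters' processing notes name Trimmomatic 0.36, Bowtie2 2.2.6, SAMtools and the build GRCm38.p4, while the counting rule, strand and treatment of fragments that match several places are not given in the sources used here.

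Counts were summed per gene and scaled to the library total (CPM, RPKM). Replicates were compared with an exact binomial test (scipy 1.17.1) on TMM effective sizes (edgeR 4.0.16) at an adjusted p under 0.05, with log2 ratios on a prior of 0.5 CPM. This replaced edgeR's quasi-likelihood test, which has no residual degrees of freedom with 1 library per replicate and 1 group. The binomial test was tried on simulated counts with Poisson noise alone, the noise that it assumes, so the trial does not cover spread beyond counting noise. Alternatives were library totals, DESeq2 1.42.0 size factors, other count minimums, other transcripts and lengths, removal of the trend with footprint density (running median of 501 genes), and edgeR's exact test. Named genes were all 10 members and, in each other list, up to 4 with the highest level and up to 4 called with the largest log2 ratio; a few more were named to show markers at or near 0 and the complement components, after their values were seen, and a few genes of the lists that this rule names are not reported here. The members and lists were chosen with earlier results of these data known. Nothing in the labels says that the replicates came from separate litters, and p-values measure the difference between these libraries.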

Additional observations from a re-analysis of the deposited data

How the results depend on the processing

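Of the 10 genes 3 were called between the replicates, and the number stayed 3 with DESeq2 size factors (17.4% of all genes called), coding transcripts alone (18.2%), the density trend removed (16.5%) and a mean count of at least 50 (26.8%), which 7 of the 10 passed. It was 1 with library totals (19.0%), 0 with the highest transcript per gene (9.41%) and 2 with every gene with a count (9.93%). It was 0 with edgeR's exact test, which called 11 of 16427 genes with a dispersion estimated from the same difference. Of the 22 other microglial genes 1 was called, against 4 with library totals and 0 with coding transcripts alone, with every gene with a count and with edgeR's exact test, where 1 had an unadjusted p under 0.05. With library totals the calls went from 0 to 1 among the myeloid transcription factors. Library totals shifted the median log2 ratio of all genes from 0.01 to 0.13 and the share of calls that were higher in replicate 2 from 34.2% to 60.7%.

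Csf1r turned from -0.08 to 0.045 with library totals and 0.16 with the highest transcript, and Tyrobp from -0.01 to 0.11 and 0.058 in those settings, and to 0.015 (coding transcripts) and 0.012 (trend removed). The C1qa over C1qc log2 ratio of -0.20 turned to 0.16 with the highest transcript and 0.16 with coding transcripts alone, since both leave out C1qc-002, and to 0.0020 with full transcript length. C1qb over C1qc turned from -0.35 to 0.013 in those first settings. Trem2 over Tyrobp passed with the highest transcript, at -2.13, and did not pass with coding transcripts alone, at -1.25. Leaving out a replicate gave ranges of -0.49 to -0.20 for C1qb over C1qc and -1.01 to -0.43 for Trem2 over Tyrobp, both past the threshold in replicate 2 alone. The summed level of 302 CPM became 358 with the highest transcript, 381 with coding transcripts and 309 without the 10 most abundant genes in the total, since the total then shrinks. Causes of the other changes were not tested. A comparison of replicates has no value without 1 of them. No paired analysis was possible because there was 1 group. Depth limits replicate 1 most, where Aif1, Tmem119 and Tyrobp had 18 to 21 footprints.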
